A study of Mus musculus with 15 samples.

Results

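The comparison described here is between mouse ears inflamed with phorbol 12-myristate 13-acetate (PMA) and given peptide 1002, and ears inflamed with PMA and given ethanol. It took in the 6 libraries labelled PMA_1002 and the 4 labelled PMA_ethanol, 10 of the 15 libraries of the series, assigned to groups by their labels. The remaining 5 libraries, labelled control, are given beside the results as the level without PMA. All 15 were polyA RNA libraries from the ear tissue of female mice aged 5 weeks, prepared with a kit that preserves strand. The labels give no strain, dose, route or time after PMA. Ethanol is named in the label of PMA_ethanol only, and whether the peptide was applied with it is not said, so peptide and vehicle cannot be told apart. Nothing in the labels says that the libraries of a group came from separate animals, so the p-values below measure the spread between these libraries, which may be technical.

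PMA is a plant-derived diester that stands in for diacylglycerol and switches on protein kinase C. In skin the kinase is known to activate the transcription factors NF-kB and AP-1, which turn on genes for cytokines, chemokines and prostaglandin synthesis, and neutrophils then enter from the blood while the epidermis thickens. Innate defense regulator peptides, of which 1002 is one, are short synthetic relatives of natural host defense peptides, studied for their effects on leukocyte and cytokine responses rather than for direct killing of microbes.

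Most genes of neutrophils, neutrophil-attracting chemokines, several interleukins of the IL-1 and IL-20 families and the wound response of the epidermis were lower with PMA_1002 than with PMA_ethanol, as with Il24 (log2 fold change -4.55), Cxcl2 (-3.17), S100a9 (-2.57) and Il1b (-2.28). Il18, also of the IL-1 family, was higher. The major keratins of resting epidermis were higher, and in the lists of Wnt signalling, DNA replication, mitosis and the circadian clock most members that passed the test rose. Genes of the cytosolic and mitochondrial ribosomes, the respiratory chain, the citrate cycle and the proteasome lay nearest to no difference. Among 14991 genes with enough reads to test, 2553 (17%) rose and 2691 (18%) fell, so that 35% of the genes tested differed at an adjusted p under 0.05 (edgeR quasi-likelihood test). The split depended on the scaling: with upper-quartile scaling 3432 genes rose and 2118 fell, which puts 61.8% of calls among the rises in place of 48.7%. Of the risen genes 386 did so by a fold of at least 2 and 39 by at least 4, and of the fallen genes 742 and 147. In what follows, rose and fell are used only of genes that passed that test. Levels are counts per 1e6 (CPM) of a library's reads in the genes tested, with that total adjusted by a scaling factor per library (TMM). Fold changes are log2 of PMA_1002 over PMA_ethanol, so that -1 is a level lower by a fold of 2. Means are given ± SD over 4 PMA_ethanol, 6 PMA_1002 or 5 control libraries, and gene positions are on GRCm38.

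Depth ran from 2656680 reads in genes (PMA_ethanol 3) to 28585995 (PMA_1002 5). Precision followed the level of a gene: the median standard error of the log2 fold change was 0.253 for the 4313 genes with a mean of 1 to 10 CPM and 0.0909 for the 2551 genes over 100 CPM. Of those 2 classes, 25.2% and 47.6% were called. The markers of the tissue were present in every library, Krt5, Krt14 and Krt10 for keratinocytes, Col1a1 and Dcn for fibroblasts and Pecam1 and Cdh5 for endothelium. Hair follicle genes varied widely inside each group and 4 PMA libraries, PMA_ethanol 1 and 2 and PMA_1002 1 and 4, were high for them. With these 4 hair-rich libraries left out, 1299 genes rose and 1698 fell. With all libraries kept and the level of hair follicle genes as a term in the fit, 2442 rose and 2528 fell. Of the called genes named below, 49 lost the call in the first of these fits and 10 in the second. The first fit also had fewer libraries, and whether hair content or the smaller number ended a call was not tested. In whole tissue, fewer cells of a type and less RNA per cell cannot be told apart.

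The genes named below as largest are the called genes that averaged 5 CPM or more in whichever PMA group was higher and whose PMA groups did not overlap. There were 1758 such falls. Among the 10 largest were 3 chemokines that attract neutrophils through the receptor Cxcr2, 2 cytokines of the IL-10 family, 2 granzymes, a collagenase, a stefin and the inducible cyclooxygenase. Because the rule asks for groups that do not overlap, that property is not a finding for them.

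The promoters of 4 of these genes are shown because each held, within the 250 bases before the gene's start in RefSeq, a match to the motif of a factor that PMA is known to activate. Capitals mark the match, an NF-kB site with any base allowed at 1 position (Cxcl3, Cxcl2) or the AP-1 site TGANTCA (Mmp13, Gzmb). Sequences are from RefSeq for GRCm38.p6 and run 5′ to 3′ on the gene's strand.
Cxcl3: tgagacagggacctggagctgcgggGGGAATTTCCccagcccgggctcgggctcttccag
Cxcl2: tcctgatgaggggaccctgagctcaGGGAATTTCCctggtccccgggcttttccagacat
Mmp13: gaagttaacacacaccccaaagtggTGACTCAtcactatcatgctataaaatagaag
Gzmb: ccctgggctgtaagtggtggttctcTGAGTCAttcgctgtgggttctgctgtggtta
The stretch for Cxcl3 is chr5:90786003-90786062, plus strand, with the match beginning 73 bases before the RefSeq start. That start is not the start of the gene position given below for Cxcl2, Cxcl3 and Gzmb, and distances are counted from it. For Cxcl2 it is chr5:90903777-90903836, plus strand, with the match at 97 bases. The Mmp13 stretch is chr9:7272454-7272510, plus strand, with the match at 35 bases, and the Gzmb stretch is chr14:56262361-56262417, minus strand, with the match at 58 bases. None of the 4 stretches holds a base of an annotated exon of its own gene, and exons of other genes were not searched. Of the 10 largest falls 8 had a promoter in the table, and 2 of the 8 held each motif. Of the 10 largest rises 8 had one and 0 of the 8 held either motif. Among all 32851 promoters of the same length, searched on both strands, the AP-1 site was found in 6.75% and the NF-kB site in 0.356%. A match is a description of the letters and not a measurement of binding.

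Cxcl2 (ENSMUSG00000058427, chr5:90903871-90905938, plus strand) stood at 317, 118, 263 and 260 CPM in PMA_ethanol 1 to 4 and at 14 to 40.1 CPM (median 25.9) in PMA_1002. Every peptide library lay below the lowest ethanol library, and the controls held 0 to 0.344 CPM. The gene fell by a log2 fold change of -3.17 (SE 0.284, adjusted p = 2.17e-06). Its neighbour Cxcl3 (ENSMUSG00000029379, chr5:90786103-90789600, plus strand) had 43.1, 20, 36.5 and 16.7 CPM with ethanol and 0.509 to 3.71 CPM (median 1.81) with the peptide (log2 fold change -3.95, SE 0.366, adjusted p = 8.53e-07). Cxcl5 (chr5:90759360-90761624), the third chemokine of this chromosome 5 cluster, had 79.4, 29.1, 73 and 15 CPM with ethanol against 0.847 to 4.53 CPM (median 2.94) with the peptide (log2 fold change -4.12, SE 0.47, adjusted p = 1.45e-05). PMA_ethanol 4 was the lowest of the ethanol libraries for Cxcl3 and Cxcl5, and PMA_ethanol 2 for Cxcl2.

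Il24 (ENSMUSG00000026420, chr1:130882074-130887454, minus strand), a cytokine of the IL-10 family that acts on keratinocytes, showed the largest fall of these. It had 81.1, 48, 62.2 and 16.6 CPM with ethanol, 1.19 to 3.91 CPM (median 1.91) with the peptide and no read in any of the 5 controls (log2 fold change -4.55, SE 0.439, adjusted p = 2.36e-05). Il19, its neighbour on chromosome 1 (chr1:130932656-130940115), had 42.3, 122, 105 and 26.9 CPM with ethanol and 1.53 to 13.4 CPM (median 5.95) with the peptide (log2 fold change -3.47, SE 0.553, adjusted p = 0.000342). For both genes the ethanol libraries spread over a wider range than the peptide libraries, and PMA_ethanol 4 was the lowest of them.

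Ptgs2 (ENSMUSG00000032487, chr1:150100031-150108227, plus strand), the inducible cyclooxygenase of prostaglandin synthesis, had 246, 95.2, 178 and 220 CPM with ethanol, 14.1 to 28.8 CPM (median 24) with the peptide and 1.71 ± 0.569 CPM in the controls (log2 fold change -3.005, SE 0.238, adjusted p = 4.56e-07). Mmp13 (ENSMUSG00000050578, chr9:7272514-7283331, plus strand), an interstitial collagenase, had 126, 88.3, 115 and 29.3 CPM with ethanol and 4.24 to 12.6 CPM (median 8.13) with the peptide (log2 fold change -3.45, SE 0.368, adjusted p = 9.12e-06). Stfa2, a stefin that inhibits cysteine proteases, went from 107 ± 39 to 9.83 ± 4.85 CPM (log2 fold change -3.44, SE 0.342, adjusted p = 4.71e-06). The stefin genes are near copies of each other. Reads that fit several positions were counted apart from the genes, so Stfa2 may be undercounted. Gzmb (ENSMUSG00000015437, chr14:56258838-56262260, minus strand), a granule protease of cytotoxic lymphocytes, was even across the ethanol libraries, with 72.4, 84.2, 68.4 and 88.5 CPM, and had 4.79 to 13.4 CPM (median 9.73) with the peptide (log2 fold change -3.08, SE 0.226, adjusted p = 1.12e-07). Gzma, the related granzyme, was scarcer, 8.23 ± 6.62 against 1.07 ± 0.742 CPM (log2 fold change -3.03, SE 0.546, adjusted p = 0.000356), and its call was lost with the 4 hair-rich libraries left out. Cd3e, of the T cell receptor complex, had 4.43 to 7.47 CPM with ethanol and 3.95 to 7.02 with the peptide (log2 fold change -0.23, adjusted p = 0.483). Cd3d, another chain of that receptor complex, had 3.07 to 3.33 and 1.02 to 2.27 CPM (log2 fold change -0.78, adjusted p = 0.0268). Of 26 T and NK cell genes 11 fell and 1 rose.

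**Figure D1:**
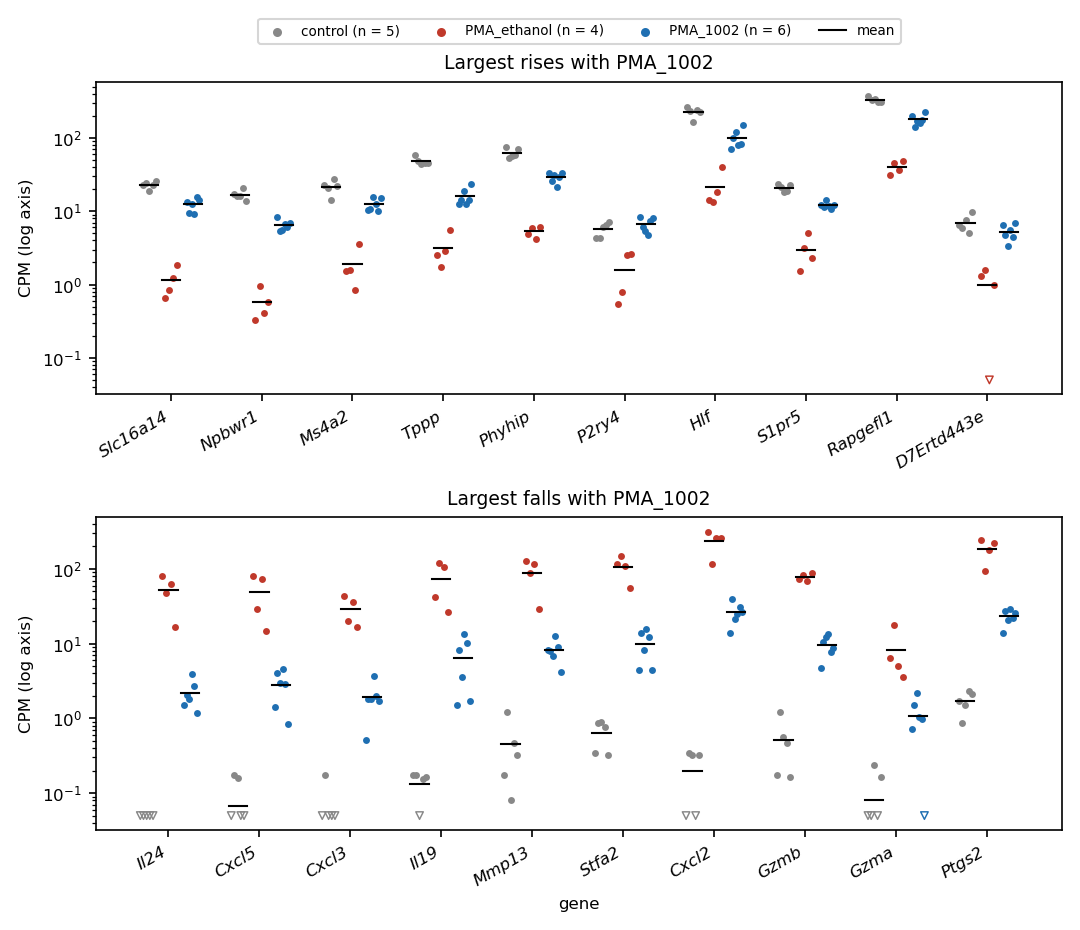
CPM in every library, on a log axis, of the 10 largest rises and the 10 largest falls, with a line at each group mean; triangles at the bottom are libraries with 0 reads. All peptide libraries of the falling genes lie below all ethanol libraries, which the choice of genes requires, and most controls lie lower still, as for Cxcl2 at 0.199 CPM.

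The 10 largest rises, out of 1367 that met the same conditions, began with Slc16a14 and Npbwr1. Slc16a14 (ENSMUSG00000026220, chr1:84905898-84935134, minus strand), a member of the monocarboxylate transporter family, had 0.658, 0.832, 1.24 and 1.86 CPM with ethanol, 9.06 to 15.7 CPM (median 13.1) with the peptide and 22.8 ± 2.51 CPM in the controls (log2 fold change 3.56, SE 0.261, adjusted p = 5.49e-08). Npbwr1 (ENSMUSG00000033774, chr1:5913707-5917398, minus strand), a receptor for neuropeptides B and W, had 0.329, 0.964, 0.415 and 0.572 CPM with ethanol and 5.37 to 8.46 CPM (median 6.29) with the peptide (log2 fold change 3.25, SE 0.269, adjusted p = 1.08e-07). Both were lowest in the ethanol group and highest in the controls.

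Ms4a2 (ENSMUSG00000024680, chr19:11615523-11623719, minus strand), the beta chain of the high-affinity IgE receptor of mast cells and basophils, had 1.53, 1.58, 0.83 and 3.58 CPM with ethanol and 10.1 to 15.4 CPM (median 11.6) with the peptide (log2 fold change 2.64, SE 0.274, adjusted p = 2.12e-06). Hlf (ENSMUSG00000003949, chr11:90336536-90390895, minus strand), a PAR bZIP transcription factor under circadian control, had 14.1, 13.2, 18.3 and 39.9 CPM with ethanol and 71.5 to 148 CPM (median 90.1) with the peptide (log2 fold change 2.24, SE 0.307, adjusted p = 0.000136). Rapgefl1 (chr11:98836785-98853697), related to exchange factors for Rap GTPases, went from 40.3 ± 7.93 to 178 ± 30.6 CPM (log2 fold change 2.14, SE 0.134, adjusted p = 3.64e-08). Phyhip rose by 2.42, Tppp, which promotes tubulin polymerization, by 2.42, P2ry4, a pyrimidine nucleotide receptor, by 2.32, S1pr5, a sphingosine 1-phosphate receptor, by 2.14 and D7Ertd443e by 2.12. For 9 of the 10 genes the control mean lay above the PMA_1002 mean, and the exception was P2ry4, with 5.64 ± 1.26 CPM in the controls and 6.68 ± 1.51 with the peptide.

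The genes with the largest gains in CPM were mostly keratins and desmosome genes. CPM is not corrected for transcript length, so this order holds for reads and not for molecules. Krt2 (ENSMUSG00000064201, chr15:101810689-101818169, minus strand), a type II keratin of the suprabasal epidermis, had 7671, 6834, 8211 and 7633 CPM with ethanol and 13878 to 17460 CPM (median 16474) with the peptide (log2 fold change 1.09, SE 0.104, adjusted p = 1.12e-06). Krt10 (ENSMUSG00000019761, chr11:99385254-99389364, minus strand), the type I keratin that marks the spinous and granular layers, had 6961, 5383, 6554 and 5944 CPM with ethanol, 12398 to 14120 CPM (median 12931) with the peptide and 13319 ± 1902 CPM in the controls (log2 fold change 1.08, SE 0.106, adjusted p = 1.36e-06). In both genes the range of the peptide libraries overlapped that of the controls, and the ethanol libraries lay below it.

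Of the other 8 genes with the largest gain in CPM, Krt5 (0.65, SE 0.0947, adjusted p = 6.57e-05) and Krt14 (0.56, SE 0.0982, adjusted p = 0.000323) are the keratin pair of the basal layer. Dsp, Pkp1, Perp and Dsg1a are parts or partners of the desmosome, with log2 fold changes of 0.57, 0.65, 0.42 and 1.16. Lor and Flg2, proteins of the cornified layer, rose by 0.68 and 1.10. Together the 10 genes held 26650 CPM with ethanol, 49092 with the peptide and 45009 in the controls. Perp was the one whose groups overlapped, at 1484 to 2047 CPM with ethanol and 2045 to 2512 with the peptide.

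The 10 largest losses in CPM summed to 22907 with ethanol, 10211 with the peptide and 3066 in the controls. Serpinb2 (ENSMUSG00000062345, chr1:107511423-107535478, plus strand), a plasminogen activator inhibitor induced in stressed epidermis, had 3725, 2194, 3839 and 2971 CPM with ethanol and 763 to 1528 CPM (median 994) with the peptide (log2 fold change -1.63, SE 0.214, adjusted p = 2.81e-05). Tnc (chr4:63959785-64047015), a matrix glycoprotein of wounds, went from 1794 ± 291 to 454 ± 88.7 CPM (log2 fold change -1.98, SE 0.149, adjusted p = 8.35e-08). Krt16 and Krt17, keratins of activated and hyperproliferative epidermis, fell by log2 fold changes of -1.75 (adjusted p = 0.00331) and -1.28 (adjusted p = 0.00027), and the call of Krt16 was lost with the 4 hair-rich libraries left out. Keratins of one type are similar in sequence, and reads that fit several positions were counted apart from the genes, so keratins may be undercounted.

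The other losses were Sprr1a (-1.78), a cornified envelope precursor, Cd44 (-1.18), the hyaluronan receptor, Mt2 (-0.86), a metallothionein, Aqp3 (-0.80), the glycerol and water channel of keratinocytes, Actb (-0.73), cytoplasmic actin, and Pabpc1 (-0.94), the poly(A)-binding protein. Actb, often taken as a constant reference, stood at 3771 ± 395 CPM with ethanol, 2276 ± 313 with the peptide and 973 ± 104 in the controls. Over all called genes the summed loss in mean CPM was 141961 and the summed gain 64240. These sums cover called genes only and carry the TMM factors, so they need not balance. They depend on the scaling and were not computed under another.

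**Figure D2:**
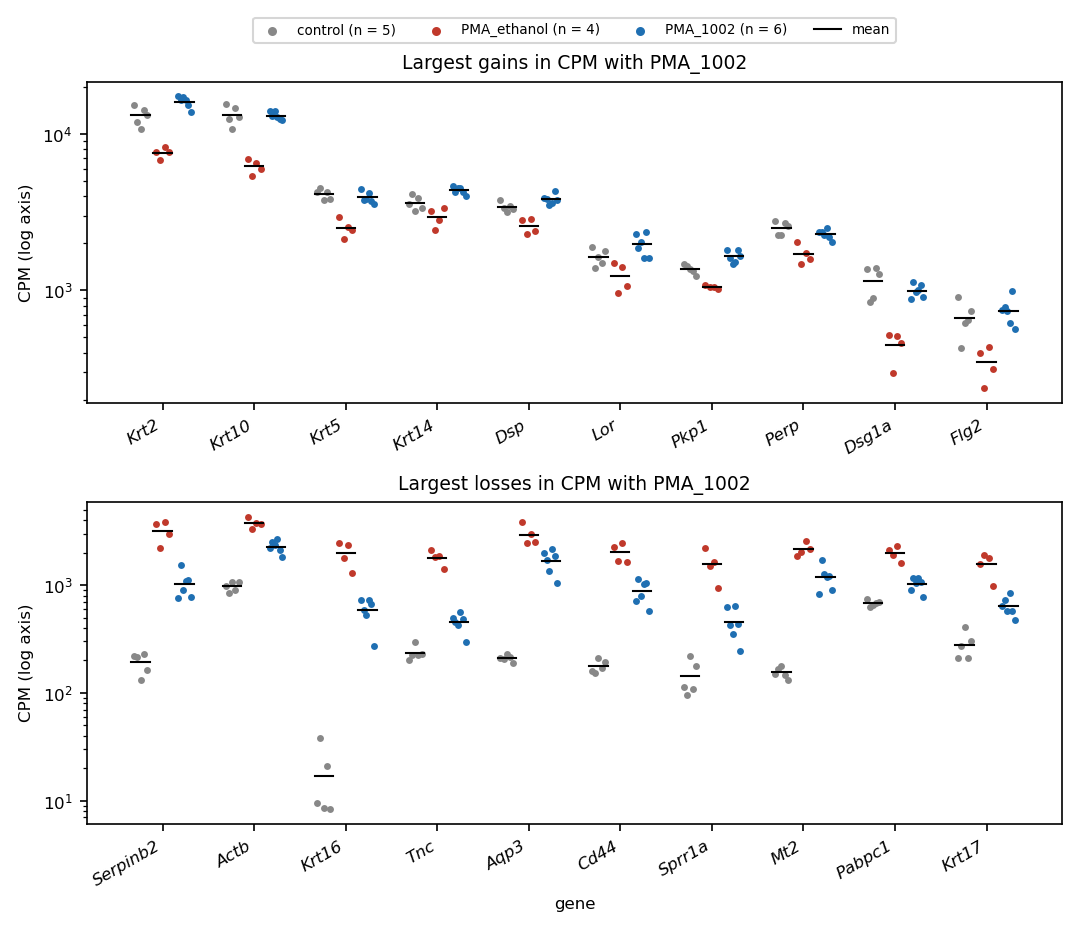
CPM in every library, on a log axis, of the 10 genes with the largest gain and the 10 with the largest loss in mean CPM, with a line at each group mean. Krt2 and Krt10 sit lowest in the ethanol group, while Serpinb2, Krt16 and Tnc are highest there, intermediate with the peptide and lowest in the controls.

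To rank functions, 105 gene lists were drawn up, and the 103 with at least 8 members measured were ordered by the median size of their members' log2 fold changes, whatever the direction. The median size over all 14991 genes was 0.27 and their median signed change 0.03. For each list the number of members that rose and fell is given, to be read against the 17% and 18% of all genes, and a list's level is the mean log2 CPM of its members in a library. The 12 lists at the top and the 12 at the bottom are described in turn, with 13 others between them that were chosen after their values were seen, most for having at least 20 called members with 85% or more of them in one direction.

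**Figure D3:**
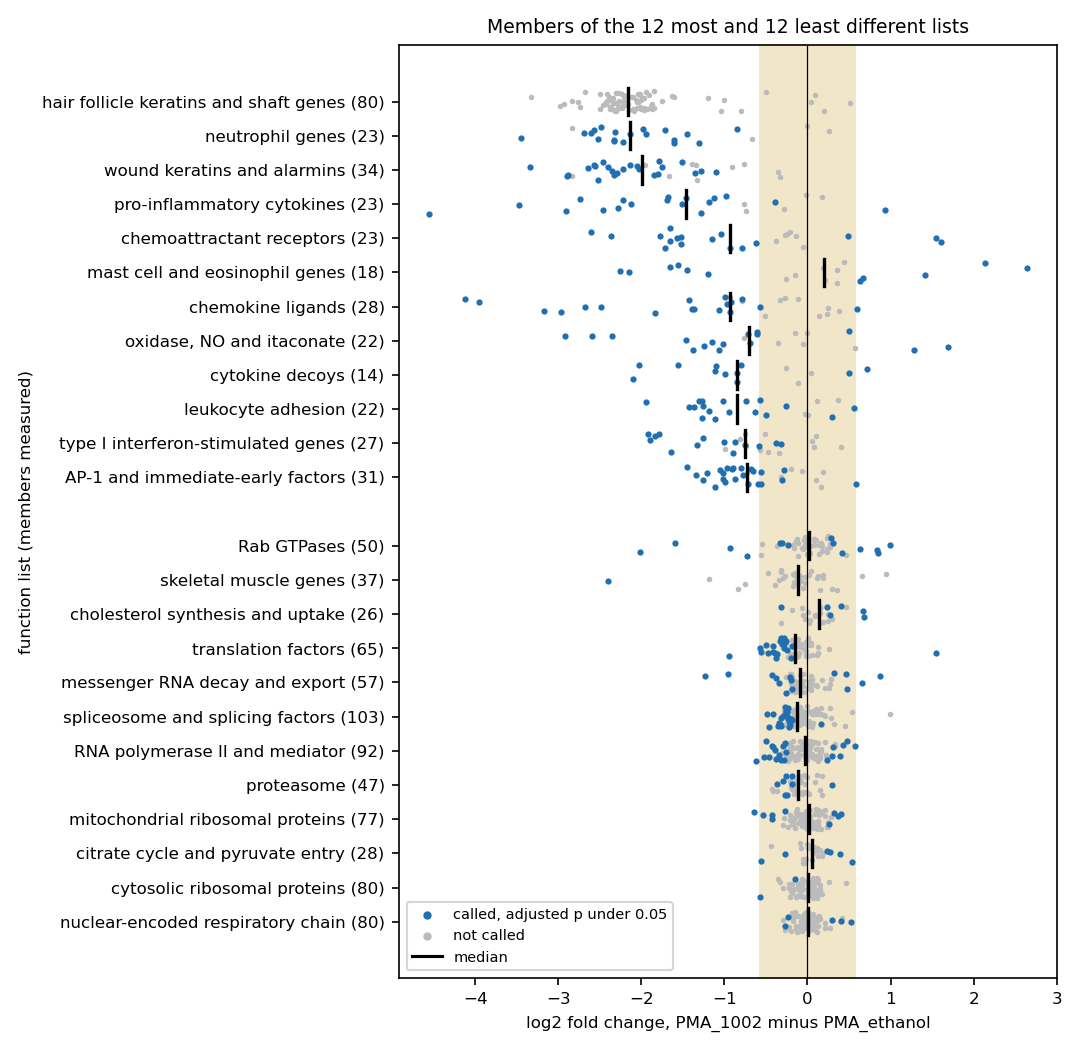
Log2 fold change of every measured member of the 12 most and 12 least different lists, each point a gene, blue if called, with the list's median as a bar; the shaded band spans 1.5-fold either way. Apart from mast cell and eosinophil genes, on both sides, the upper lists spread to the left of the band, from medians of -2.16 for hair follicle genes to -0.70 for the oxidase list, and the lower lists stay mostly within it.

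Neutrophil genes came second in the order and were the most different list with any called member. Of 23 measured members 19 fell and 0 rose, 18 of them by a fold of at least 2, with a median of -2.14. The list's level was 6.01 to 6.49 in the ethanol libraries, 4.17 to 4.63 in the peptide libraries and 0.95 to 1.52 in the controls, with no overlap between the groups. Lcn2 (ENSMUSG00000026822, chr2:32384633-32388252, minus strand), the siderophore-binding lipocalin, had 220, 261, 214 and 211 CPM with ethanol and 38.3 to 64.7 CPM (median 48.1) with the peptide (log2 fold change -2.21, SE 0.119, adjusted p = 3.5e-09). The lowest ethanol library was far above the highest peptide library. Mmp9, a gelatinase of neutrophil granules, went from 153 ± 19.5 to 27.5 ± 6.37 CPM (log2 fold change -2.49, SE 0.168, adjusted p = 4.2e-08), and Hdc, which makes histamine, from 261 ± 50.3 to 94.6 ± 17.5 CPM (log2 fold change -1.45, SE 0.141, adjusted p = 1.06e-06). Chosen after their values were seen, Csf3r, the receptor for granulocyte colony-stimulating factor, was at -2.33 (adjusted p = 1.15e-05), and S100a8 and S100a9, the calprotectin subunits, were at -2.52 and -2.57.

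The 4 members that did not pass the test were not alike. Mpo and Ctsg, proteins of the primary granules, were at -0.00 (SE 0.28, adjusted p = 0.998) and 0.26 (SE 0.315, adjusted p = 0.556). Mpo had 3.32 to 13.2 CPM with ethanol, 6.46 to 14.1 with the peptide and 9.36 to 17.4 in the controls, so that all 3 groups overlapped. Padi4 was at -0.67 (SE 0.61, adjusted p = 0.418) and Stfa1 at -2.83 (SE 1.08, adjusted p = 0.0708). Ly6g, a defining surface marker of mouse neutrophils, had under 1 CPM in every library and was not tested.

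Chemokine ligands were lower in 17 of 28 cases and higher in 1, with a median of -0.93. Besides Cxcl2, Cxcl3 and Cxcl5, Ccl4 (ENSMUSG00000018930, chr11:83662584-83664683, plus strand), which attracts monocytes and T cells, had 86.1, 92.7, 96.2 and 83.7 CPM with ethanol and 3.57 to 15.8 CPM (median 13.5) with the peptide (log2 fold change -2.96, SE 0.272, adjusted p = 1.39e-06). Ccl6 went from 160 ± 36.3 to 61.8 ± 9.12 CPM (log2 fold change -1.39, SE 0.14, adjusted p = 1.39e-06). Of genes chosen after their values were seen, Cxcl1, another Cxcr2 ligand, fell by 1.43 and Ccl11, the eosinophil attractant eotaxin, by 1.83. The one rise was Ccl12, which draws monocytes, with a fold change of 0.59 (adjusted p = 0.0232), and this call was lost without PMA_ethanol 1, 3 or 4 or PMA_1002 6 (adjusted p = 0.0513 to 0.0797). Cxcl12, the homeostatic stromal chemokine, was at -0.11 (SE 0.101, adjusted p = 0.422), with 165 ± 15.1 CPM with ethanol and 153 ± 24.2 with the peptide.

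The receptors for such attractants were lower in 14 of 23 cases and higher in 3, with a median of -0.93. Ccr1 (ENSMUSG00000025804, chr9:123962124-123968692, minus strand), a receptor of neutrophils and monocytes, had 218, 182, 209 and 200 CPM with ethanol and 28.7 to 46 CPM (median 40.5) with the peptide (log2 fold change -2.36, SE 0.136, adjusted p = 9.19e-09). Cxcr2, the neutrophil receptor for Cxcl1, Cxcl2, Cxcl3 and Cxcl5, went from 260 ± 60.2 to 78.8 ± 12 CPM (log2 fold change -1.71, SE 0.181, adjusted p = 3.89e-06), and Cxcr4 from 23.8 ± 3.29 to 8.28 ± 0.722 CPM (log2 fold change -1.52, SE 0.164, adjusted p = 2.26e-06). The 3 rises, named after their values were seen, were Ccr4 (1.61), a receptor of skin-homing T cells, and the scavenging receptors Ackr4 (1.54) and Ackr3 (0.49). Ackr4 lost its call with the 4 hair-rich libraries left out. Both Ccr4 and Ackr4 were higher in the controls, at 15.6 ± 2.82 and 62.9 ± 10.3 CPM, than with the peptide, at 6.81 ± 1.08 and 22.3 ± 5.91 CPM.

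Among pro-inflammatory cytokines and growth factors of leukocytes 17 of 23 fell and 1 rose, with a median of -1.46. Il1b (ENSMUSG00000027398, chr2:129364570-129371139, minus strand), the secreted interleukin 1 beta, had 955, 494, 784 and 956 CPM with ethanol and 119 to 208 CPM (median 167) with the peptide, against 1.85 ± 0.633 CPM in the controls (log2 fold change -2.28, SE 0.187, adjusted p = 3.43e-07). Tslp (chr18:32815383-32819797), an epithelial cytokine of allergic skin, had 64.9, 57.6, 146 and 98.3 CPM with ethanol and 6.72 to 19.8 CPM (median 9.92) with the peptide (log2 fold change -2.91, SE 0.292, adjusted p = 3.78e-06). Lif, of the IL-6 family, went from 31 ± 8.84 to 7.15 ± 1.61 CPM (log2 fold change -2.13, SE 0.201, adjusted p = 5.89e-07), and Osm, a relative named after its value was seen, fell by 2.46. Il18 was the single rise, also named after its value was seen. This IL-1 family cytokine, held in resting keratinocytes, had 19, 15.3, 19.9 and 16.2 CPM with ethanol and 29.5 to 38.6 CPM (median 31.5) with the peptide (log2 fold change 0.94, SE 0.214, adjusted p = 0.0034), with no overlap, but its call was lost with the 4 hair-rich libraries left out.

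Genes that restrain cytokines moved in the same direction as the cytokines. Of 14 measured decoys and anti-inflammatory cytokines 9 fell and 2 rose, with a median of -0.85. Il1rn (ENSMUSG00000026981, chr2:24336853-24351494, plus strand), the antagonist of the interleukin 1 receptor, had 610, 444, 652 and 437 CPM with ethanol and 107 to 153 CPM (median 133) with the peptide (log2 fold change -2.03, SE 0.127, adjusted p = 1.94e-08). Tgfb1 went from 158 ± 15.5 to 79.4 ± 7.54 CPM (log2 fold change -0.99, SE 0.0831, adjusted p = 1.78e-07), and Tnfrsf1b, the second receptor for tumor necrosis factor, from 111 ± 14.2 to 37.1 ± 7.7 CPM (log2 fold change -1.56, SE 0.141, adjusted p = 3.83e-07). Of genes named after their values were seen, Il10 fell by 2.10 (adjusted p = 5.65e-07), while Il22ra2, a soluble trap for interleukin 22, rose by 0.72 and Sigirr, an inhibitory receptor, by 0.50. The call of Il22ra2 was lost without PMA_ethanol 1 or 2 or PMA_1002 5 (adjusted p = 0.0513 to 0.119) and that of Sigirr without PMA_ethanol 1 or 3 or PMA_1002 1 (adjusted p = 0.0534 to 0.0828).

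The list of wound keratins, alarmins and small proline-rich proteins had 24 of 34 members lower and 0 higher, with a median of -1.99. Slpi (ENSMUSG00000017002, chr2:164354070-164389095, minus strand), an antiprotease, had 761, 618, 692 and 400 CPM with ethanol and 75.9 to 152 CPM (median 123) with the peptide (log2 fold change -2.40, SE 0.218, adjusted p = 1.34e-06). Stfa3, a stefin, went from 209 ± 58.7 to 41.4 ± 13.9 CPM (log2 fold change -2.33, SE 0.246, adjusted p = 6.48e-06), and Lcn2 also belongs to this list. Krt6b, a wound keratin named after its value was seen, fell by 2.89 (SE 0.487, adjusted p = 0.00061). The levels of the list overlapped between the groups, at 5.21 to 7.24 with ethanol and 3.58 to 5.52 with the peptide, and 15 members fell with the 4 hair-rich libraries left out. Stefins, Sprr genes and Krt6 genes are near-identical families, which may be undercounted because reads that fit several positions were counted apart from the genes.

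Mast cell and eosinophil genes were the one list among the first 12 that moved both ways. Of 18 measured members 5 rose and 6 fell, with a median size of 0.94 and a signed median of 0.20, which was -0.14 without the filter on low counts. The members that rose were mast cell genes: Ms4a2, Tph1, Kit, Gata2 and Mrgprb2, the last 4 named after their values were seen. Tph1, the serotonin-forming hydroxylase of mast cells, had 9.87, 17, 12.9 and 11.3 CPM with ethanol and 31.4 to 39.5 CPM (median 33.8) with the peptide (log2 fold change 1.42, SE 0.21, adjusted p = 9.36e-05). Kit, the stem cell factor receptor, rose by 0.63, Gata2 by 0.67 and the receptor Mrgprb2, at 0.263 ± 0.226 and 1.29 ± 0.425 CPM, by 2.13. The call of Gata2 was lost without PMA_ethanol 1 or 3 (adjusted p = 0.0509 to 0.0544).

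Those that fell were the IL-33 receptor Il1rl1, Hdc and Hpgds, together with the eosinophil genes Siglecf, Ccr3 and Ear2. Il1rl1 (ENSMUSG00000026069, chr1:40429570-40465415, plus strand), also carried by other leukocytes, had 227, 148, 104 and 141 CPM with ethanol and 26.2 to 36.3 CPM (median 33.3) with the peptide (log2 fold change -2.26, SE 0.154, adjusted p = 4.11e-08). Siglecf, a sialic acid receptor of eosinophils, was scarce, 3.26 ± 0.836 against 0.744 ± 0.283 CPM (log2 fold change -2.15, SE 0.362, adjusted p = 0.00014). Ccr3 fell by 1.65 and Ear2 by 1.56, but the calls were lost without PMA_ethanol 2 (adjusted p = 0.0514 and 0.212). The granule proteases of connective tissue mast cells did not pass the test, with Cpa3 at 0.36 (SE 0.199, adjusted p = 0.185), Mcpt4 at 0.21 (SE 0.112, adjusted p = 0.155) and Cma1 at 0.19 (SE 0.166, adjusted p = 0.402). Except for Hdc and Il1rl1, which the naming rule gave, these genes were chosen after their values were seen.

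Genes of the phagocyte oxidase, nitric oxide and itaconate fell in 13 of 22 cases and rose in 3, with a median of -0.70. Arg2, a mitochondrial arginase, had 70.2, 56.5, 49.4 and 73.5 CPM with ethanol and 8.86 to 17.1 CPM (median 12.1) with the peptide (log2 fold change -2.35, SE 0.174, adjusted p = 7.02e-08). Rac2 (-1.38, SE 0.13, adjusted p = 5.42e-07), part of the oxidase of neutrophils and macrophages, fell too. Acod1, the itaconate-forming enzyme, and Lpo, lactoperoxidase, were at -2.59 and -2.92, both named after their values were seen. The 3 rises were other oxidases: Nox4 (1.69) and the epithelial Duox2 (1.28) with the maturation factor Duoxa1 (0.49). The calls of Nox4 and Duox2 were lost with the 4 hair-rich libraries left out, and that of Duoxa1 without any 1 PMA library other than PMA_ethanol 1 or PMA_1002 3 or 6 (adjusted p = 0.0576 to 0.153).

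Leukocyte adhesion and endothelial activation genes fell in 16 of 22 cases and rose in 2, with a median of -0.84. The 3 with the smallest adjusted p are carried by leukocytes. Selplg, the ligand for selectins, had 61, 58.4, 73 and 75.7 CPM with ethanol and 19.8 to 30.2 CPM (median 26.5) with the peptide (log2 fold change -1.37, SE 0.123, adjusted p = 3.6e-07). Itgb2, the beta 2 integrin chain, fell by 1.27 and Itgal, its partner in LFA-1, by 1.43. Endothelial Sele, E-selectin, was at -0.03 (SE 0.279, adjusted p = 0.949), with 47.4 ± 25.1 CPM with ethanol, 46.6 ± 11.5 with the peptide and 4.56 ± 0.915 in the controls. Sele was named after its value was seen, as were the 2 rises, Jam2 (0.57) and Cd34 (0.30). The Cd34 call was lost without PMA_ethanol 1 or 2 or PMA_1002 3 or 6 (adjusted p = 0.0522 to 0.0835) and that of Jam2 with the 4 hair-rich libraries left out.

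Pattern recognition and inflammasome genes, 14th in the order, fell in 22 of 36 cases and rose in 3. Cd14 (ENSMUSG00000051439, chr18:36725067-36726798, minus strand), the lipopolysaccharide co-receptor, had 845, 474, 723 and 644 CPM with ethanol and 96 to 160 CPM (median 120) with the peptide (log2 fold change -2.45, SE 0.168, adjusted p = 6.25e-08). Myd88, the adaptor of most Toll-like receptors, was even inside the groups, at 255, 253, 277 and 250 CPM with ethanol and 141 to 165 with the peptide (log2 fold change -0.76, SE 0.0627, adjusted p = 1.68e-07). Tmem173, which encodes STING, fell by 1.10. Named after their values were seen, Clec7a, the receptor Dectin-1, fell by 2.77 and Nlrp3, an inflammasome sensor, by 2.498, while Pycard, the inflammasome adaptor, rose by 1.12 (adjusted p = 5.15e-06). The other rises were Tlr5 (0.76) and Nod1 (0.36), with the first lost without PMA_ethanol 2 (adjusted p = 0.0579) and the second without PMA_ethanol 1 or 4 or PMA_1002 6 (adjusted p = 0.0529 to 0.0808).

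NF-kB subunits, inhibitors and feedback genes fell in 21 of 24 cases and rose in 1, with a median of -0.61. Nfkb1 (ENSMUSG00000028163, chr3:135584655-135691547, minus strand), the p50 precursor, had 763, 692, 833 and 792 CPM with ethanol, 287 to 399 CPM (median 308) with the peptide and 109 ± 8.65 CPM in the controls (log2 fold change -1.22, SE 0.1, adjusted p = 1.51e-07). Rela, the p65 subunit, fell by 0.72 and Nfkb2 by 0.78. Of members named after their values were seen, the feedback inhibitors Tnfaip3 and Nfkbia were at -1.34 and -0.80 and Traf1 at -1.57. Ikbkg, the scaffold of the IKK complex, was the 1 that rose (0.34, adjusted p = 0.0133), and this call was lost with the 4 hair-rich libraries left out.

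AP-1 and immediate-early factors fell in 23 of 31 cases and rose in 1, with a median of -0.73. Many of them are transcribed within minutes of protein kinase C activation. Fosl2 had 800, 744, 813 and 780 CPM with ethanol and 366 to 426 CPM (median 381) with the peptide (log2 fold change -1.02, SE 0.0717, adjusted p = 4.09e-08), and Egr2 had 208, 233, 212 and 227 and 106 to 126 CPM (median 117) (log2 fold change -0.91, SE 0.0647, adjusted p = 4.11e-08). Ier5 fell by 1.21. Among genes named after their values were seen, Fosl1 fell by 1.25 and Fos by 1.34, with the Fos call lost without any 1 PMA library other than PMA_ethanol 2 or 3 or PMA_1002 3 or 6 (adjusted p = 0.0513 to 0.0995). The rise was Klf4 (0.59, adjusted p = 0.000649), a factor of keratinocyte differentiation. Jund, at 0.19 (SE 0.112, adjusted p = 0.219), and Myc, at 0.10 (SE 0.0866, adjusted p = 0.387), did not pass the test.

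Type I interferon-stimulated genes fell in 14 of 27 cases and rose in 0, with a median of -0.75. The list's level was uneven among the ethanol libraries, 3.21, 3.48, 2.43 and 2.56 in PMA_ethanol 1 to 4, against 2.09 to 2.60 with the peptide, so that the groups overlapped. Oasl2, of the oligoadenylate synthetase family, had 28.4, 24.6, 17.4 and 12.2 CPM with ethanol and 4.27 to 7.03 CPM (median 5.62) with the peptide (log2 fold change -1.92, SE 0.211, adjusted p = 2.72e-06). Trim30a fell by 1.33 and Isg15, the ubiquitin-like modifier, by 1.78. Irf7 and Ifit2, named after their values were seen, were at -0.33 (SE 0.268, adjusted p = 0.364) and 0.41 (SE 0.219, adjusted p = 0.162). PMA_ethanol 1 and 2, the libraries with the highest level of the list, are also those with high hair follicle genes. With the 4 hair-rich libraries left out 5 members fell and the median was -0.14, but PMA_ethanol 3 and 4 were then the only ethanol libraries. With the level of hair follicle genes as a term in the fit, the number of falls stayed within 1.5-fold of 14. Whether hair content plays a part was not tested.

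Hair follicle keratins and shaft genes stood first in the order, with a median of -2.16 over 80 measured members, yet 0 rose and 0 fell. Their median standard error was 1.40. Single libraries moved the count, with 8 falls without PMA_1002 1 and 3 without PMA_ethanol 4, and 3 members rose with the list's level as a term. The level of the list in control 1 to 5 was 0.22, 1.35, 5.16, 1.70 and 4.21, in PMA_ethanol 1 to 4 4.22, 5.51, -1.32 and 1.91 and in PMA_1002 1 to 6 3.99, -0.93, 0.43, 3.28, -0.92 and -1.16. The groups overlapped over most of their range. Tchh, trichohyalin, had 465, 1152, 9.96 and 78.5 CPM with ethanol and 4.41 to 356 CPM (median 18.9) with the peptide, a difference of -2.06 (SE 1.47, adjusted p = 0.301), and Krt71, a keratin of the inner root sheath, was at -2.06 (SE 1.63, adjusted p = 0.353).

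**Figure D4:**
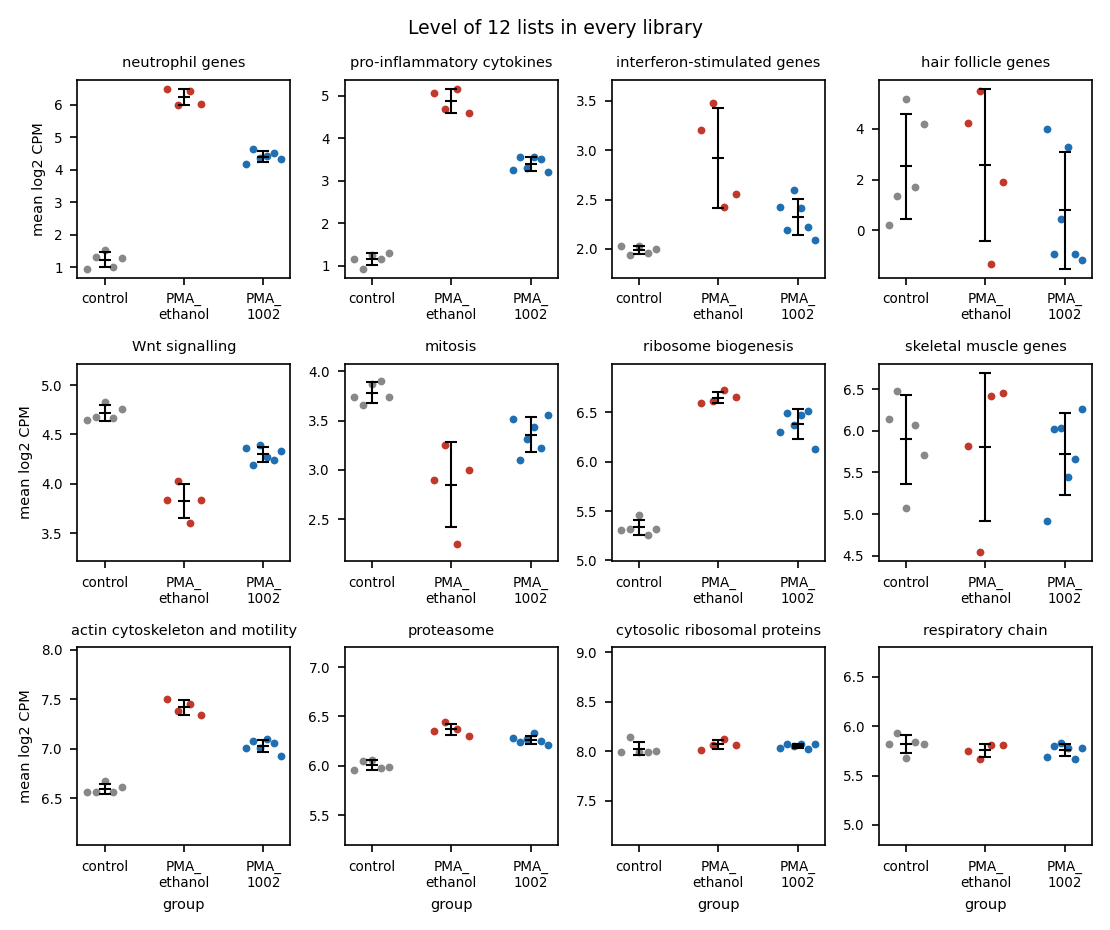
Level of 12 lists in every library as the mean log2 CPM of the list's members, each point a library, with the mean and SD of each group. Neutrophil genes separate the 3 groups, at 0.95 to 1.52, 6.01 to 6.49 and 4.17 to 4.63, hair follicle and skeletal muscle genes scatter inside every group, and cytosolic ribosomal protein genes stay between 7.99 and 8.14.

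Several structural and growth programs changed mostly one way by smaller amounts. Most of these lists were chosen for that, so the shared direction is not a finding for them. Genes of the actin cytoskeleton and motility fell in 46 of 70 cases and rose in 3, with a median of -0.45. Zyx, zyxin of focal adhesions, had 401, 287, 349 and 356 CPM with ethanol and 139 to 167 CPM (median 150) with the peptide (log2 fold change -1.20, SE 0.106, adjusted p = 3.06e-07). Coro1a, a coronin of leukocytes, fell by 1.15 and Actg1, named after its value was seen, by 1.002. The rises were Limk2 (0.43), Pfn2 (0.49) and Wasf1 (0.87), and the latter 2 calls were lost, Pfn2 without PMA_ethanol 2 (adjusted p = 0.0718) and Wasf1 without PMA_ethanol 1 or 4 or PMA_1002 6 (adjusted p = 0.0552 to 0.104).

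Of 49 Wnt signalling genes 22 rose and 0 fell, with a median of 0.34. Axin2 (ENSMUSG00000000142, chr11:108920349-108950783, plus strand), a feedback inhibitor and common readout of the pathway, had 9.43, 15.4, 8.71 and 10.3 CPM with ethanol, 28.3 to 37.5 CPM (median 31.2) with the peptide and 71.2 ± 3.5 CPM in the controls (log2 fold change 1.47, SE 0.132, adjusted p = 5.13e-07). The ligand Wnt4 (chr4:137277489-137299726) had 21.8, 35.3, 19.5 and 30 CPM with ethanol and 69.9 to 120 CPM (median 76) with the peptide (log2 fold change 1.59, SE 0.163, adjusted p = 3.14e-06), and Wnt3 rose by 1.09. Wnt7b and Wnt16, named after their values were seen, rose by 1.33 and 2.09, and the call of Wnt16 was lost with the 4 hair-rich libraries left out. The level of the list was 3.60 to 4.03 with ethanol, 4.19 to 4.39 with the peptide and 4.64 to 4.83 in the controls, with no overlap.

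Cell cycle lists differed from each other. For DNA replication 26 of 66 members rose and 3 fell, with a median of 0.37 and levels of 3.19 to 3.836 with ethanol and 3.835 to 3.99 with the peptide, which overlapped. In the list of cyclins, inhibitors and p53 targets 14 of 40 rose and 14 fell, with a median of -0.03. Rpa1, of the single-strand binding complex, had 34.5, 38.5, 26.1 and 37.9 CPM with ethanol and 48.7 to 57.8 CPM (median 51) with the peptide (log2 fold change 0.58, SE 0.0913, adjusted p = 0.000113), and Mcm6, a subunit of the replicative helicase, had 32.9, 43.5, 29 and 36.9 and 52.7 to 59.1 CPM (median 54.2) (log2 fold change 0.61, SE 0.0996, adjusted p = 0.000181). Pold4, a small subunit of DNA polymerase delta, fell by 0.59. Named after their values were seen, Orc1 rose by 1.10 and Mcm2 by 0.79, whereas E2f7, a repressor of the E2F family, fell by 1.09 and Rrm2, of ribonucleotide reductase, by 0.42. The call of Rrm2 was lost without PMA_ethanol 4 (adjusted p = 0.0635) and that of E2f7 with the 4 hair-rich libraries left out. PMA_ethanol 3, the shallowest library, was the lowest for both Rpa1 and Mcm6.

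For mitosis 23 of 85 members rose and 2 fell, with a median of 0.38 and 79 of the 85 estimates above 0. The levels of the list overlapped, at 2.25 to 3.25 with ethanol and 3.10 to 3.56 with the peptide. Anln, anillin of the cleavage furrow, had 33.8, 24.1, 15.3 and 26.3 CPM with ethanol and 39.8 to 49.7 CPM (median 45.7) with the peptide (log2 fold change 0.83, SE 0.143, adjusted p = 0.000296). Cenpi, a centromere protein, rose by 1.28 and Ncapd3, of condensin II, by 0.72. The 2 falls were Ube2s (-0.42) and Cenpm (-0.75), and the second was lost without any 1 PMA library other than PMA_ethanol 3 or PMA_1002 3 (adjusted p = 0.0533 to 0.116). Mki67, a marker of cycling cells, was at 0.38 (SE 0.184, adjusted p = 0.13). The number of rising members was sensitive to single libraries, 13 without PMA_ethanol 1 and 40 without PMA_ethanol 2, and for DNA replication it was 14 without PMA_ethanol 1.

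Cilium and intraflagellar transport genes rose in 30 of 89 cases and fell in 2, with a median of 0.21. Ttc30b had 2.96, 3.46, 2.9 and 2.57 CPM with ethanol and 4.97 to 6.42 CPM (median 5.84) with the peptide (log2 fold change 0.92, SE 0.15, adjusted p = 0.000171). Wdr19, of the retrograde transport complex, rose by 0.99 and Cc2d2a, of the transition zone, by 0.43. The falls, B9d2 (-0.50) and Cep83 (-0.35), were lost without any 1 PMA library other than PMA_1002 5 or 6 (adjusted p = 0.0609 to 0.0959) and without PMA_ethanol 1 or 3 (adjusted p = 0.0568 to 0.0737). Without PMA_ethanol 1 the number of rises was 19, and 13 with the 4 hair-rich libraries left out.

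Fatty acid oxidation and peroxisome genes rose in 17 of 45 cases and fell in 3, with a median of 0.15. Abcd3, a peroxisomal transporter, had 134, 129, 113 and 149 CPM with ethanol and 176 to 202 CPM (median 185) with the peptide (log2 fold change 0.50, SE 0.0752, adjusted p = 7.48e-05), and Hadh, of mitochondrial beta oxidation, rose by 0.48. Cpt1a and Cat, named after their values were seen, rose by 0.56 and 0.61. The falls were the nuclear receptor Ppard (-0.84), Slc25a20 (-0.40) and Pex5 (-0.38). With the 4 hair-rich libraries left out 7 members rose and the call of Pex5 was lost.

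Ribosome biogenesis genes fell in 33 of 62 cases and rose in 0, with a median of -0.26. Utp4, of the small-subunit processome, had 157, 137, 151 and 151 CPM with ethanol and 81.8 to 113 CPM (median 103) with the peptide, against 30.5 ± 2.64 CPM in the controls (log2 fold change -0.56, SE 0.0896, adjusted p = 0.000127). Noc4l and Imp4, of the same pathway, fell by 0.49 and 0.46, and 17 members fell with the 4 hair-rich libraries left out. Genes of folding in the endoplasmic reticulum and the unfolded protein response fell in 23 of 49 cases and rose in 0, with a median of -0.21. Hspa5 (chr2:34771970-34777547), the chaperone BiP, had 1084, 921, 1307 and 779 CPM with ethanol and 460 to 592 CPM (median 549) with the peptide (log2 fold change -0.91, SE 0.114, adjusted p = 1.06e-05). Pdia6 fell by 0.58 and the stress sensor Atf6 by 0.53, and Xbp1, named after its value was seen, by 0.56. With upper-quartile scaling 2 members of this list rose and 15 fell, 14 fell without PMA_ethanol 1 or PMA_ethanol 3 and 10 with the 4 hair-rich libraries left out.

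Epidermal genes divided. In the list of differentiation and the cornified envelope 18 of 43 members rose and 9 fell, and the list's level overlapped between the groups. Beside Krt2 and Krt10, Krt1, the partner of Krt10, rose by 0.97. In the opposite direction Tgm3 (ENSMUSG00000027401, chr2:130012349-130050399, plus strand), a transglutaminase of the cornified envelope, had 517, 625, 409 and 234 CPM with ethanol and 96.9 to 144 CPM (median 118) with the peptide (log2 fold change -1.93, SE 0.202, adjusted p = 3.98e-06), and Tgm1 fell by 1.55. Of 24 basal keratinocyte genes 14 rose and 6 fell, with a median of 0.40 and levels of 7.54 to 7.64 with ethanol and 7.81 to 7.88 with the peptide.

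Among the basal genes that rose were Jag2 (0.86, SE 0.1, adjusted p = 6.96e-06), a Notch ligand, and Krt15, a keratin of quiescent basal and follicle stem cells. Krt15 had 151, 180, 104 and 285 CPM with ethanol, 326 to 653 CPM (median 464) with the peptide and 1249 ± 225 CPM in the controls (log2 fold change 1.39, SE 0.239, adjusted p = 0.000571). Among the 6 that fell were the laminin chains Lama3 (-0.81) and Lamb3 (-0.66), with Cd44, Itgb1 (-0.55) and Cdh3 (-0.35). Cdh3 lost its call without any 1 PMA library other than PMA_ethanol 1 or PMA_1002 2, 4 or 5 (adjusted p = 0.0503 to 0.141). Apart from Krt2, Krt10, Tgm3, Jag2 and Cd44, the genes of these epidermal lists named here were chosen after their values were seen.

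Circadian clock and PAR bZIP genes rose in 13 of 24 cases and fell in 3, with a median of 0.40 and levels that did not overlap, 5.25 to 5.61 with ethanol, 5.71 to 6.001 with the peptide and 5.97 to 6.17 in the controls. The PAR bZIP factors Hlf, Dbp and Tef rose by 2.24, 1.503 and 0.91 and the clock repressor Per3 by 1.20. Dbp had 7.13, 6.18, 9.96 and 8.87 CPM with ethanol, 17 to 31.2 CPM (median 20.4) with the peptide and 71.4 to 117 in the controls. Bhlhe40 and Nfil3, repressors within the clock network that cytokines also induce, fell by 0.83 and 1.09, and the kinase Csnk1d by 0.54. Arntl, the core activator, was at 0.11 (SE 0.113, adjusted p = 0.5). With the 4 hair-rich libraries left out, 5 members rose. The labels give no hour of sampling. Dbp, Tef, Per3 and Arntl were chosen after their values were seen.

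At the other end of the order, 12 lists had median sizes of change from 0.07 to 0.18. For these lists the share of members whose 95% interval lay entirely within 1.5-fold either way is given, since a p that misses the threshold does not show that levels were alike. Over all 14991 genes that share was 48.5%, or 7266 genes, and it was 66.5% for genes over 100 CPM and 14.2% for those of 1 to 10 CPM.

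The nuclear-encoded respiratory chain differed least, with a median size of 0.07, a signed median of 0.01 and 90% of its 80 members inside the band. Its level was 5.66 to 5.81 with ethanol, 5.67 to 5.83 with the peptide and 5.68 to 5.93 in the controls. Uqcrfs1, the Rieske protein of complex III, fell from 111 ± 6.95 to 91.8 ± 4.86 CPM (log2 fold change -0.27, SE 0.068, adjusted p = 0.00495) and Uqcrq by 0.23. Ndufv3, of complex I, rose by 0.40, and Ndufb4 and Ndufa6, named after their values were seen, by 0.53 and 0.29. The call of Ndufb4 was lost without any 1 PMA library other than PMA_1002 1, 5 or 6 (adjusted p = 0.0578 to 0.128) and that of Ndufa6 without PMA_ethanol 1 (adjusted p = 0.0516). Ndufv3 lost its call with the 4 hair-rich libraries left out and Uqcrq with upper-quartile scaling. Counts in this list depended on the scaling, with 9 rises and 1 fall under upper-quartile scaling 11 falls under RLE and 5 falls without PMA_ethanol 2.

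Cytosolic ribosomal proteins had a median size of 0.08, a signed median of 0.01 and 91.2% of 80 members inside the band. The level of the list was 8.02 to 8.13 with ethanol, 8.02 to 8.07 with the peptide and 7.99 to 8.14 in the controls. The 2 members that fell did so by little. Rps13 had 353, 352, 385 and 354 CPM with ethanol and 306 to 336 CPM (median 327) with the peptide (log2 fold change -0.15, SE 0.0565, adjusted p = 0.043), and Rpl39l, a scarce variant, had 4.6 ± 1.14 and 3.01 ± 0.544 CPM (log2 fold change -0.57, SE 0.203, adjusted p = 0.0358). Their calls were lost, Rps13 without any 1 PMA library other than PMA_1002 1 or 4 (adjusted p = 0.0562 to 0.135) and Rpl39l without any 1 PMA library other than PMA_ethanol 1 or PMA_1002 4 or 6 (adjusted p = 0.0529 to 0.0911). Under upper-quartile scaling 13 members rose and 0 fell, and under RLE 6 fell. Ribosomal protein genes have many processed pseudogenes. Reads that fit several positions were counted apart from the genes, so members of this list may be undercounted.

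Around them lay 2 further mitochondrial lists. Of 28 citrate cycle and pyruvate entry genes 4 rose and 2 fell, with 85.7% inside the band. Dlst, of the 2-oxoglutarate dehydrogenase complex, was the clearest exception, with 230, 231, 236 and 237 CPM with ethanol and 146 to 163 CPM (median 161) with the peptide (log2 fold change -0.56, SE 0.0628, adjusted p = 3.45e-06). Mdh2 fell by 0.27 and Idh2 rose by 0.53. The other rises, Idh1 (0.40), Acly (0.28) and Me1 (0.23), were named after their values were seen, with Idh1 lost without PMA_ethanol 1 or 3 (adjusted p = 0.0654 to 0.0872) and Me1 without any 1 PMA library other than PMA_ethanol 1 or 4 or PMA_1002 2 or 5 (adjusted p = 0.0597 to 0.16). Mdh2 and Acly lost their calls with the 4 hair-rich libraries left out. Under upper-quartile scaling 8 members rose.

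Mitochondrial ribosomal proteins rose in 4 and fell in 5 of 77 cases, with a signed median of 0.02 and 89.6% inside the band. Mrpl33 had 59.3, 53, 57.2 and 49.5 CPM with ethanol and 33.4 to 42 CPM (median 37.9) with the peptide (log2 fold change -0.54, SE 0.0928, adjusted p = 0.000248), and Mrps25 and Mrpl52 fell by 0.65 and 0.42. The others called, named after their values were seen, were the falls Mrps6 (-0.43) and Mrpl3 (-0.28) and the rises Mrpl42 (0.40), Mrpl55 (0.37), Mrpl40 (0.32) and Mrps34 (0.26). With the 4 hair-rich libraries left out 0 members rose and 3 fell, and the calls of Mrpl42 and Mrps6 were among those lost. Single libraries ended 4 calls. Mrpl3 was lost without PMA_ethanol 1 or 2 (adjusted p = 0.0533 to 0.0632) and Mrps34 without PMA_ethanol 4 (adjusted p = 0.0703). Mrpl40 was lost without PMA_ethanol 1, 2 or 4 or PMA_1002 4 (adjusted p = 0.0608 to 0.103) and Mrpl55 without any 1 PMA library other than PMA_ethanol 3 or PMA_1002 2, 3 or 5 (adjusted p = 0.059 to 0.153).

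For protein turnover, 7 of 47 proteasome genes fell and 1 rose, with a median of -0.11 and 93.6% inside the band, the highest share of the 12 lists. The estimates were small but mostly below 0, with 7 of the 47 above it. Psmd11, of the regulatory lid, had 206, 173, 197 and 166 CPM with ethanol and 129 to 153 CPM (median 146) with the peptide (log2 fold change -0.36, SE 0.0717, adjusted p = 0.000817), and Pomp, the assembly factor, fell by 0.29 and Psmb4 by 0.27. The rise was Psmd5 (0.29), named after its value was seen. Psmb4 lost its call without PMA_ethanol 2 (adjusted p = 0.0593) and Psmd5 without PMA_ethanol 1, 3 or 4 or PMA_1002 4 (adjusted p = 0.0572 to 0.104). The number of falls was 2 under upper-quartile scaling and 16 under RLE. It was 3 without PMA_ethanol 2, 4 without PMA_ethanol 3 or PMA_1002 3 or 6, 11 without PMA_ethanol 4 and 1 with the 4 hair-rich libraries left out, where Pomp lost its call too.

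The lists of transcription and splicing had small median sizes of change. Of 103 spliceosome genes 23 fell and 1 rose, with a median of -0.12 and 90.3% inside the band. Dhx38, a helicase of the second splicing step, had 112, 107, 110 and 110 CPM with ethanol and 70 to 83.7 CPM (median 78.2) with the peptide (log2 fold change -0.49, SE 0.0695, adjusted p = 3.82e-05). Rbm17 fell by 0.35 and U2af2 by 0.29, and Hnrnpul2, the rise, named after its value was seen, was at 0.16 and lost its call without any 1 PMA library other than PMA_1002 1, 3, 5 or 6 (adjusted p = 0.0525 to 0.0708). Upper-quartile scaling gave 7 rises and 8 falls in this list, and 15 genes fell without PMA_ethanol 2. With the 4 hair-rich libraries left out 6 fell and U2af2 lost its call. For RNA polymerase II, mediator and general factors 7 of 92 rose and 14 fell, with a median of -0.03 and 81.5% inside the band. Cdk19, a mediator kinase, rose from 34.7 ± 2.96 to 52 ± 4.2 CPM (log2 fold change 0.57, SE 0.0751, adjusted p = 1.98e-05), while Supt6 and Med13l fell by 0.42 and 0.41. Without PMA_ethanol 3, 8 members of the polymerase list fell, and without PMA_ethanol 1, 4 rose.

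Translation factors fell in 21 of 65 cases and rose in 1, with a median of -0.15 and 80% inside the band. The changes were small but mostly downward, with 13 of the 65 estimates above 0. Levels of the list did not overlap, at 7.04 to 7.15 with ethanol and 6.84 to 7.01 with the peptide. The rise stood far outside the rest of the list. Eef2k (ENSMUSG00000035064, chr7:120842831-120907450, plus strand), the kinase that inhibits elongation factor 2, had 25.8, 29.6, 28.6 and 34.2 CPM with ethanol, 77.3 to 99.8 CPM (median 84.5) with the peptide and 139 ± 7.95 CPM in the controls (log2 fold change 1.55, SE 0.0861, adjusted p = 8.76e-09). Pabpc1 had 2116, 1887, 2288 and 1586 CPM with ethanol and 777 to 1173 CPM (median 1065) with the peptide (log2 fold change -0.94, SE 0.118, adjusted p = 1.04e-05), and Eif5a fell by 0.56. The elongation factors Eef1a1 and Eef2, named after their values were seen, were at 0.01 (95% interval -0.14 to 0.14) and 0.05 (95% interval -0.13 to 0.22). With upper-quartile scaling 2 members rose and 12 fell, and 9 fell with the 4 hair-rich libraries left out.

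Messenger RNA decay and export genes rose in 5 and fell in 9 of 57 cases, with 86% inside the band. The largest falls were in decay factors known to be induced by cytokines. Zfp36, tristetraprolin, had 586, 496, 550 and 769 CPM with ethanol, 186 to 329 CPM (median 249) with the peptide and 53.9 ± 5.12 CPM in the controls (log2 fold change -1.23, SE 0.147, adjusted p = 7.42e-06), and Zc3h12a, regnase 1, fell by 0.95. Zfp36l2 rose by 0.46, and so did Ago4 (0.87), Ago1 (0.66), Upf3b (0.47) and Xrn1 (0.32), named after their values were seen. With the 4 hair-rich libraries left out 2 members rose and 5 fell, and Ago4, Upf3b and Xrn1 lost their calls. The list had 10 rises and 5 falls under upper-quartile scaling and 14 falls under RLE.

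Cholesterol synthesis and uptake genes rose in 5 and fell in 1 of 26 cases, with 80.8% inside the band. Mvk, mevalonate kinase, had 34.2, 40.1, 34.8 and 38.9 CPM with ethanol and 53.5 to 70.5 CPM (median 58.9) with the peptide (log2 fold change 0.68, SE 0.0887, adjusted p = 2.02e-05), Stard4 rose by 0.66 and Fdps by 0.40. Lss (0.28) and Sqle (0.23) rose, both named after their values were seen, and single libraries ended each call. Lss was lost without any 1 PMA library other than PMA_ethanol 4 or PMA_1002 2 or 5 (adjusted p = 0.0624 to 0.152) and Sqle without PMA_ethanol 2 or 3 or PMA_1002 1, 3 or 4 (adjusted p = 0.0556 to 0.133). The call of Fdps was lost with the 4 hair-rich libraries left out.

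Rab GTPases, regulators of membrane traffic, rose in 7 and fell in 7 of 50 cases, with a signed median of 0.01 and 66% inside the band. The rises numbered 12 under upper-quartile scaling and 4 without PMA_ethanol 1 or without the 4 hair-rich libraries, and the signed median was -0.03 under RLE. Of the falls, 2 were by a fold of at least 2. Rab20, known from macrophage phagosomes, had 45.2, 50.2, 59.3 and 48.5 CPM with ethanol and 13.3 to 23.3 CPM (median 16.1) with the peptide (log2 fold change -1.59, SE 0.134, adjusted p = 1.93e-07), and Rab44, a large atypical Rab, fell by 2.01. Rab3d, a Rab of secretory granules, had 66.2, 65.6, 83 and 75 and 116 to 139 CPM (median 129) (log2 fold change 0.84, SE 0.084, adjusted p = 1.58e-06). Of members named after their values were seen, Rab31 fell by 0.93 and Rab30 rose by 0.99.

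Skeletal muscle genes also had a small median, -0.12, but with wide intervals: only 5.41% of 37 members lay inside the band, and the median standard error was 0.406. Their level in PMA_ethanol 1 to 4 was 5.82, 4.54, 6.42 and 6.45 and in PMA_1002 1 to 6 4.92, 6.02, 6.03, 5.45, 5.66 and 6.27. The single call was Myod1, the myogenic factor, which fell by 2.40 (SE 0.59, adjusted p = 0.00602) on 7.89, 2.63, 34 and 14.3 CPM with ethanol and 1.12 to 4.58 CPM (median 2.56) with the peptide, with overlapping groups. At this spread the muscle genes were not shown to be alike.

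The 10 genes with the narrowest intervals, among those of at least 50 CPM with an adjusted p over 0.5, were spread over several functions. Tmed10 (ENSMUSG00000021248, chr12:85340614-85374847, minus strand), a cargo receptor of the early secretory pathway, had 167, 164, 177 and 164 CPM with ethanol and 162 to 178 CPM (median 169) with the peptide, a log2 fold change of 0.01 (95% interval -0.10 to 0.13). Rps6, of the small ribosomal subunit, had 302, 315, 317 and 306 CPM with ethanol and 296 to 320 CPM (median 308) with the peptide, with an interval of -0.13 to 0.11. Trim41, a ubiquitin ligase, had 71.3 ± 2.66 and 71.5 ± 3.22 CPM and an interval of -0.12 to 0.12. The others were Smu1 (-0.05), Ubap2l (-0.02), Tacc1 (0.03), Qrich1 (-0.05), the ribosomal protein-like Gm10260 (0.05), Mark2 (0.03) and Bsg (0.04). The rule asked for small differences, so these values describe the precision reached and are not a test.

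**Figure D5:**
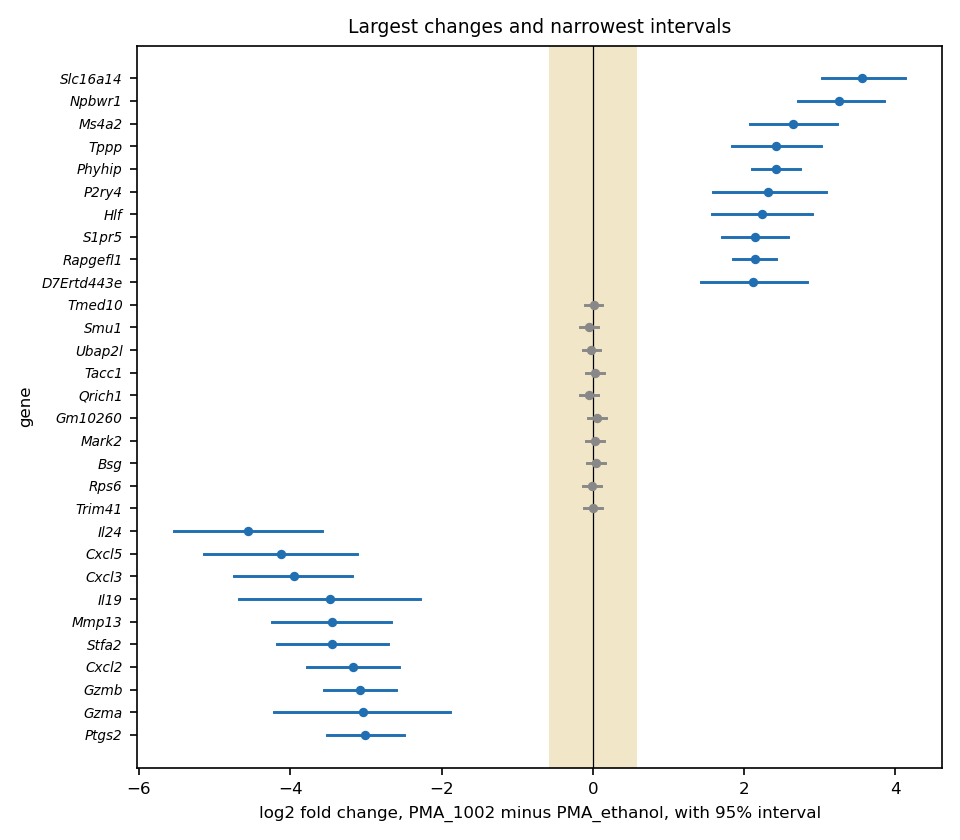
Log2 fold change with its 95% interval for the 10 largest rises, the 10 genes with the narrowest intervals and the 10 largest falls; the shaded band spans 1.5-fold either way. The middle genes lie within the band, Tmed10 for example at -0.10 to 0.13, while the intervals of the falling genes reach from -5.54 for Il24 to -1.89 for Gzma.

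Markers of the main cell types moved unequally beside these results, and their part in the lists above was not tested. Fibroblast Col1a1 and Dcn were at -0.13 (adjusted p = 0.807) and 0.23 (adjusted p = 0.146), whereas Pdgfra, also of fibroblasts, fell by 0.77 (adjusted p = 3.78e-07). The macrophage markers Csf1r and Adgre1 were at -0.12 (adjusted p = 0.44) and -0.55 (adjusted p = 0.0134). Endothelial Pecam1 and Cdh5 fell by 0.26 and 0.61. The muscle genes Acta1 and Ckm were at -0.27 and -0.31, with adjusted p = 0.586 and 0.589, and the B cell gene Cd79a was too scarce to be tested. The neutrophil markers Csf3r and Cxcr2 had 265 to 565 and 181 to 319 CPM with ethanol, 59.4 to 123 and 59.8 to 91.9 CPM with the peptide and at most 4.01 and 16.6 CPM in the controls. These markers were lower with the peptide, as were most called members of the chemokine, receptor and oxidase lists, several of which neutrophils also express. Cxcr2 is itself a member of the receptor list, and the part of neutrophil number in these lists was not tested.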

How the data were processed

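The submitters' processing notes name FastQC 0.11.5, MultiQC 0.8, STAR 2.5 and HTSeq with the mouse build GRCm38, and the sources used here do not give the strand setting of the counting. The deposited values are raw read counts per Ensembl gene, 1 file per library, made by the authors. Lines of reads given to no gene were removed. Gene symbols came from the reference annotation, with 48349 of 48795 rows matched, and rows without a symbol held 0.0913% of reads. Counts were filtered by group, scaled by TMM and fitted with edgeR 4.0.16 in R 4.3.3 over all 15 libraries, with the group as the only term. The quasi-likelihood test compared PMA_1002 with PMA_ethanol, and p-values were adjusted by Benjamini-Hochberg over 14991 genes.

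The groups, the gene lists and the rules were chosen with earlier results of these data known, so the lists are no independent support. No test was run on a list. Named were the 10 largest changes each way (mean of at least 5 CPM, groups not overlapping), the 10 largest gains and losses in CPM, the 10 narrowest intervals and, in each list, up to 3 called members with the smallest adjusted p, or 2 abundant members where none was called. Others are said to be chosen after their values were seen. Some genes that these rules named are not reported here. List levels use log2 CPM with a prior count of 2. The code was tested on simulated data. Alternatives were RLE and upper-quartile scaling, DESeq2 1.42.0, other filters, only the 10 libraries, a replicate block and leaving out each library. Added after seeing the data were the level of hair follicle genes as a term, and a fit without the 4 PMA libraries in which it exceeded 3.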

Additional observations from a re-analysis of the deposited data

Results flagged for a closer look

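Of the 174 groups of 4 to 6 libraries examined, from 50 genes and 37 lists given by library, 3 held a library standing apart by Dixon's criterion, where chance alone gives about 1 in 20. S1pr5 was at 14.4 CPM in PMA_1002 3, against 10.8 to 12.1 CPM in the other 5 peptide libraries. The level of mast cell and eosinophil genes was 3.79 (mean log2 CPM) in PMA_1002 1, below the 3.86 to 3.9 of the others. The level of circadian genes was 6.001 (mean log2 CPM) in PMA_1002 6, above the 5.71 to 5.81 of the others.

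Reads outside the gene counts also differed. The share of reads given to no gene had a median of 31.88% in PMA_ethanol (31.11% to 32.85%), above the highest control, 30.05%, and PMA_1002 lay at 28.8% to 30.96%. The share of reads with several positions had a median of 18.95% in PMA_ethanol (18.63% to 20.12%), above the highest control, 17.86%, and PMA_1002 lay at 16.85% to 18.75%.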

How the results depend on the processing

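Genes that rose and fell numbered 2166 and 3031 with RLE, 3432 and 2118 with upper-quartile scaling, 2185 and 3105 with DESeq2, 2201 and 2492 without a filter, 2236 and 2482 with a mean of at least 5 CPM, and 2087 and 2598 from the 10 PMA libraries only. Leaving out 1 library at a time gave 1989 to 2480 rises and 2267 to 2625 falls. Excluding the 4 PMA libraries of high hair follicle level gave 1299 rises and 1698 falls, from 6 libraries in place of 10, and the hair follicle level as a term gave 2442 and 2528. With a replicate block 1890 genes rose and 2098 fell, but the replicate numbers did not pair the libraries: same-numbered libraries correlated at 0.579, -0.471, 0.0919 and -0.339. Of the first 12 lists 10 to 12, and of the last 12 lists 9 to 12, stayed among the 12 under each other fit, whereas ordering by the share of members called kept 8 and 8. No called gene that was named changed sign under any other fit. Signed list medians close to 0 did: Rab GTPases and cytosolic ribosomal proteins (both -0.03 with RLE), RNA polymerase II (0.04 with upper-quartile scaling), citrate cycle (-0.0026 without the 4 libraries), skeletal muscle (0.09 without PMA_ethanol 4), and, in several fits, the respiratory chain and mitochondrial ribosomal proteins. The median of mast cell and eosinophil genes went from 0.20 to -0.14 without a filter. Of the 233 called genes named, 175 kept their call in every other fit, 34 lost it without 1 library and 49 without the 4 libraries. Genes of 1 to 10 CPM had a median standard error of 0.253, so changes under 1.5-fold were mostly beyond this depth. The cause of these shifts was not tested.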
